A study of Mus musculus with 8 samples.

Results

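The Krüppel-like factor genes *Klf2*, *Klf3*, *Klf4*, *Klf5*, *Klf6*, *Klf7*, *Klf9*, *Klf10*, *Klf13*, and *Klf15* were examined for peaks of PBRM1 and BRG1 in primary mouse uterine stromal cells. These 10 genes were chosen by name, out of 21951 protein-coding genes in the GENCODE M21 annotation. A promoter peak was one within 2000 bp of any annotated transcription start site of the gene, and a distal peak was any other peak in the gene or the 50 kb on either side of it. The cells came from WT mice on D4, pooled from the uterine horns of several pseudopregnant animals, cultured briefly, and fixed for 5 minutes, with 50000 cells per library in the labels and a wider range of cell numbers and fixation times in the study's methods. All libraries shared this genotype label, day, and cell type, and no transgene or drug is listed for them. Chromatin immunocleavage sequencing (ChIC-Seq), in which an antibody brings a micrococcal nuclease, fused to protein A/G, to cut the DNA nearby, was performed with an antibody against PBRM1 in 3 replicates and against BRG1 in 3 replicates. One further peak list per antibody had been called on all 3 replicates together, and 2 IgG libraries were not analyzed here.

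PBRM1 (BAF180) is a bromodomain subunit of the PBAF form of the SWI/SNF chromatin-remodeling complex, and BRG1 is an ATPase that drives both the BAF and the PBAF forms. Krüppel-like factors are zinc finger proteins that bind GC-rich and CACCC sequences, where they can compete with one another and with the related Sp factors. The uterus uses several of them in its response to steroid hormones: KLF9 is a partner of the progesterone receptor, KLF13 is its close relative, and KLF15 restrains the estrogen-driven proliferation of the epithelium. Other members are known mostly from other compartments, with KLF5 and KLF4 prominent in epithelia and KLF2 and KLF4 in endothelium.

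The sequences at the center of the strongest sites are shown first, since the comparisons below return to them. Each line holds the summit of a pooled BRG1 peak with 100 bases on either side, read 5′ to 3′ on the strand of the gene from GRCm38 (mm10). Capitals mark a GC box (GGGCGG) or a CACCC box, on either strand. They also mark an AP-1 string (TGANTCA). An E-box (CACGTG) is in capitals too. The first 3 lines are the promoter peaks of *Klf6*, *Klf7*, and *Klf9*, which ranked in the top 1% of the pooled BRG1 list, and the other 4 are distal peaks that lay away from every annotated start site and were present in all 3 BRG1 replicates.
*Klf6* promoter, chr13:5861244-5861444, plus strand: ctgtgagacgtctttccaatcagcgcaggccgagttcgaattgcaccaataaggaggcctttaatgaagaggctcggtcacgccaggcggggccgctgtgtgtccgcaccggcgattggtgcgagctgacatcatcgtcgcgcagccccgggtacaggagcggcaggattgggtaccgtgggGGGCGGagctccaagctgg
*Klf7* promoter, chr1:64121640-64121840, minus strand: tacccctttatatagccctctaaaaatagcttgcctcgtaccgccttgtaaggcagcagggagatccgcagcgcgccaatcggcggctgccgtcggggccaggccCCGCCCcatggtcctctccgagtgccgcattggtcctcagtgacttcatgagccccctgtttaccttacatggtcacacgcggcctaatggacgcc
*Klf9* promoter, chr19:23140838-23141038, plus strand: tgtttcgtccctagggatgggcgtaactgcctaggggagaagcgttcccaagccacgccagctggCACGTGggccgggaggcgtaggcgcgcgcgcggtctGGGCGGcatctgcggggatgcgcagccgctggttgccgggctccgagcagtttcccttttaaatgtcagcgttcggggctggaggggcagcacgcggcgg
*Klf4* downstream peak, chr4:55514853-55515053, minus strand: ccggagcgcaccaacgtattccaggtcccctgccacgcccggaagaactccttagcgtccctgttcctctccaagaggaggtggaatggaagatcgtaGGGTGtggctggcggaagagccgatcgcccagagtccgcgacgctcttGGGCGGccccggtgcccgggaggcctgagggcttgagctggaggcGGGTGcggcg
*Klf2* upstream peak, chr8:72295866-72296066, plus strand: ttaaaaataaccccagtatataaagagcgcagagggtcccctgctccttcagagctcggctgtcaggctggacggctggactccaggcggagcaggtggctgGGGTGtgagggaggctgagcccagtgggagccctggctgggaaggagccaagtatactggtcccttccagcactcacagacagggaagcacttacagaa
*Klf6* upstream peak, chr13:5845231-5845431, plus strand: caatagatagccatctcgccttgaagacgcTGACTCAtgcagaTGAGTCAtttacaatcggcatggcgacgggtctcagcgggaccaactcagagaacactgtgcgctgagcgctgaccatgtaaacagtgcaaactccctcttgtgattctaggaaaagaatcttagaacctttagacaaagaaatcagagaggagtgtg
*Klf3* downstream peak, chr5:64840240-64840440, plus strand: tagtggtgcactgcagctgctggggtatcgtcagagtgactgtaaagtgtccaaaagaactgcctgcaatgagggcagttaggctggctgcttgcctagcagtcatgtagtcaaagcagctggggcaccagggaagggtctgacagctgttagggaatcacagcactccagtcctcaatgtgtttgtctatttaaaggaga

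The replicate lists held 21912 to 26363 peaks for PBRM1, from 8868777 to 16505239 fragments, and 36656 to 40610 peaks for BRG1, from 11506964 to 14595089 fragments. The longer BRG1 lists favor BRG1 in any count of peaks and raise its percentiles, so that values from lists of equal length are given beside them. Of the markers of cell types, 7 of 12 stromal genes had a promoter peak in all 6 replicates, compared with 51.9% of all protein-coding genes. *Vim*, *Pdgfra*, *Hand2*, and *Pgr* were among them, and *Col1a1*, *Col1a2*, *Col3a1*, *Hoxa11*, and *Esr1* were not. The corresponding counts in all 6 replicates were 1 of 10 for epithelium, 2 of 8 for endothelium, and 1 of 6 for smooth muscle. For leukocytes it was 0 of 8, and 6 of these had no promoter peak in any of the 8 lists. In the 3 BRG1 replicates, the counts were 11 of 12 for stroma, 4 of 10 for epithelium, 5 of 8 for endothelium, and 3 of 6 for smooth muscle. For leukocytes it was 0 of 8, and for all genes the share was 61.4%. The part of other cells in the peaks at the Krüppel-like factor genes was not tested.

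All 10 genes carried a promoter peak in each of the 6 replicates. Across all protein-coding genes, 51.9% did so, with 52.2% for the 3 PBRM1 replicates and 61.4% for the 3 BRG1 replicates. Every one of the 10 genes also begins in a CpG-rich stretch (at least 50% G and C and an observed-to-expected CpG ratio of at least 0.6 in the 500 bp on either side of the 5′-most start), and 84.0% of the 9740 genes with such a start had a promoter peak in all 6 replicates. Read against that class of genes, 10 of 10 was close to the background. Cutting each replicate list to its 20000 strongest peaks left the count at 10 of 10, against 48.6% of all genes.

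The height of these promoter peaks was ordinary, whereas their rank was high. Fold enrichment is the fragment pileup at the summit divided by the local background, and the median over the 10 genes was 6.04 to 7.79 in the PBRM1 replicates and 7.76 to 8.23 in the BRG1 replicates. The medians over all genes with a promoter peak were 5.73 to 7.52 and 8.08 to 8.22. By percentile of −log10 q within the list, where 100 is the strongest peak, the medians of the 10 genes were 89.8 to 91.7 for PBRM1 and 92.9 to 95.5 for BRG1, compared with 72.1 to 75.0 and 81.0 to 82.4 for all genes with a promoter peak. Their peaks were also longer, with median lengths of 647 to 848.5 bp in the PBRM1 replicates compared with 522 to 593 bp over all genes, and of 691.5 to 804.5 bp compared with 575 to 639 bp in the BRG1 replicates. These medians were not set against those of genes with a CpG-rich start, a class to which all 10 genes belong. No test was made over the 10 genes as a list.

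**Figure D1:**
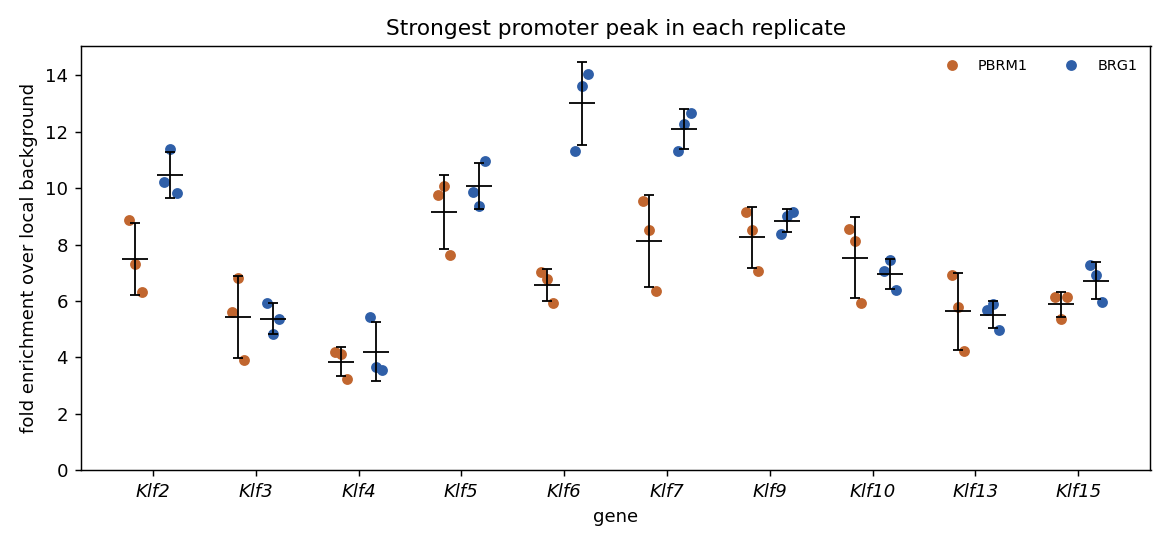
Fold enrichment over the local background (y axis, linear) of the strongest promoter peak of each gene (x axis) in each PBRM1 (orange) and BRG1 (blue) replicate; bars are the mean and SD of 3 replicates. *Klf6* sits at 5.94 to 7.02 for PBRM1 and 11.3 to 14.1 for BRG1, and the *Klf4* means are the lowest of the 10 genes with both antibodies.

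The activators related to *Klf2*, which are known to recruit acetyltransferases, are *Klf2*, *Klf4*, *Klf5*, *Klf6*, and *Klf7*. Every BRG1 fold enrichment was above every PBRM1 one at *Klf2*, *Klf6*, and *Klf7*, which is 3 of the 10 genes, compared with 40.7% of the genes tested, and the values overlapped at *Klf4* and *Klf5*. *Klf6*, a widely expressed immediate-early gene, had promoter fold enrichments of 7.02, 6.78, and 5.94 in PBRM1 replicates 1 to 3 and of 11.3, 13.6, and 14.1 in BRG1 replicates 1 to 3. The BRG1 values were all above the PBRM1 values. Their means were 6.58 ± 0.566 and 13.0 ± 1.47 (SD, n = 3 each), a ratio of 1.98, where the median ratio over the 11388 genes with a promoter peak in all 6 replicates was 1.24 and the ratio at *Klf6* was at percentile 99.2 of those genes. The BRG1 summit was at the same base in all 3 replicates, 138 bp upstream of the 5′-most start (chr13:5861482), whereas the PBRM1 summits lay 396, 144, and 164 bp upstream. The percentile of the *Klf6* peak was 77.4, 86.5, and 89.6 in the PBRM1 lists and 99.3, 99.8, and 99.9 in the longer BRG1 lists. Among the 20000 strongest peaks of each list it was 74.0, 82.2, and 88.6 for PBRM1 and 98.6, 99.6, and 99.8 for BRG1.

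*Klf7*, a factor best known from neurons and adipocyte precursors, had promoter fold enrichments of 9.54, 8.50, and 6.36 for PBRM1 and of 11.3, 12.3, and 12.7 for BRG1. Here too the antibodies did not overlap, and the ratio of the means was 1.49, at percentile 84.5 of the genes. The summits clustered 525 to 548 bp downstream of the 5′-most start in all 6 replicates, which is 243 to 266 bp upstream of the start of another *Klf7* transcript. *Klf2*, which maintains quiescence in endothelium and in T cells, had 8.86, 7.31, and 6.31 for PBRM1 and 10.2, 11.4, and 9.83 for BRG1. Its BRG1 values were again all higher, with a ratio of 1.40, at percentile 75.1 of the genes. The BRG1 summits at *Klf2* lay 63 to 66 bp upstream of its single start site compared with 121 to 138 bp for PBRM1.

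*Klf5*, an epithelial proliferation factor that is also needed in the uterus for implantation, had fold enrichments of 9.75, 10.1, and 7.65 for PBRM1, the highest PBRM1 mean of the 10 genes at 9.16 ± 1.32 (SD, n = 3). The BRG1 values at *Klf5* were 9.86, 9.37, and 10.96, overlapping those of PBRM1. In contrast, *Klf4*, a reprogramming factor that restrains proliferation in epithelia, had the weakest promoter of the 10, with 4.18, 4.11, and 3.24 for PBRM1 and 5.43, 3.65, and 3.55 for BRG1. No single *Klf4* peak accounted for these values. The strongest one lay inside the gene, 1056 to 1956 bp downstream of the 5′-most start, in 5 of the 6 replicates, and 100 bp upstream of the start in BRG1 replicate 1 alone. The pooled BRG1 list also had its strongest summit 100 bp upstream, with a fold enrichment of 5.68. Its pileup there was 147, compared with 55 in BRG1 replicate 1, so fragments of the other BRG1 replicates lay there without a called peak. The pooled PBRM1 list had its only promoter peak 1895 bp downstream, at 4.07-fold.

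The repressors that recruit the Sin3 corepressor, *Klf9*, *Klf10*, and *Klf13*, had promoters at which the values of both antibodies overlapped. The fold enrichments also overlapped at *Klf3*, *Klf4*, *Klf5*, and *Klf15*, so that 7 of the 10 genes showed this. Across the genes tested, every BRG1 value was above every PBRM1 one at 40.7%, and the share with overlap was not computed. *Klf9* had fold enrichments of 9.17, 8.52, and 7.06 for PBRM1 and of 8.37, 9.02, and 9.15 for BRG1, so that neither antibody stood above the other in fold enrichment. Its percentiles were the most even of the 10 genes, 97.7, 98.4, and 97.9 for PBRM1 and 97.6, 98.4, and 98.3 for BRG1. *Klf10*, induced by TGF-β, had 8.56, 8.14, and 5.91 for PBRM1 and 7.08, 7.44, and 6.38 for BRG1. These overlapped as well, and the ratio of 0.924 was the lowest of the 10, at percentile 4.63 of the genes.

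*Klf13* had 6.92, 5.77, and 4.21 at its strongest promoter peak for PBRM1 and 5.68, 5.89, and 4.96 for BRG1. PBRM1 replicate 3 was the lowest of the 6 at *Klf13*, as it also was at *Klf2*, *Klf3*, *Klf4*, *Klf5*, *Klf6*, *Klf7*, *Klf9*, and *Klf10*, and it was the list with the most fragments and the fewest peaks. *Klf13* also carried peaks at an alternative start more than 13 kb into the gene. The pooled BRG1 peak there was 5.47-fold with its summit 13767 bp downstream of the 5′-most start, close to the 5.64-fold of the main promoter, and the pooled PBRM1 peak was 4.44-fold at 13758 bp.

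*Klf3*, a repressor that works through CtBP, had 5.60, 6.81, and 3.92 for PBRM1 and 5.92, 4.83, and 5.38 for BRG1. Its PBRM1 replicates spanned percentiles 53.5 to 86.0, the widest spread of any of the 10 PBRM1 promoters, and the BRG1 replicates at 69.0 to 83.2 fell within that span. *Klf15* had 6.14, 5.37, and 6.14 for PBRM1 and 7.27, 6.92, and 5.98 for BRG1. Its strongest summit was 1116 to 1154 bp downstream of the 5′-most start in all 6 replicates, in an intron, and smaller peaks 78 to 223 bp upstream were called in 5 of the 6 replicates. PBRM1 replicate 3 held the downstream peak alone.

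**Figure D2:**
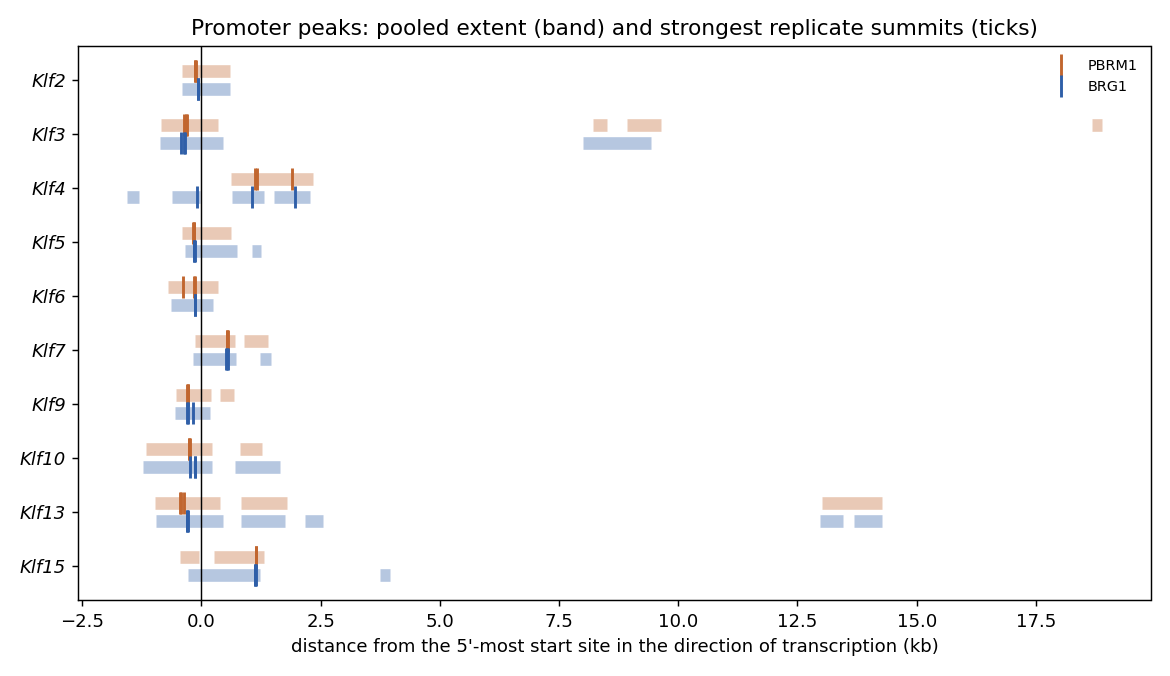
Promoter peaks by distance from the 5′-most start site in the direction of transcription (x axis, kb), 1 row per gene; bands are pooled peaks and ticks are the summits of the strongest peak in each replicate, PBRM1 in orange and BRG1 in blue. The strongest pooled BRG1 summit is upstream of the start for 8 genes and downstream for *Klf7* and *Klf15*, and the bands beyond 5 kb at *Klf3* and *Klf13* lie at alternative starts.

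The PBRM1 and BRG1 lists were compared by rank, because their values do not share a scale. A percentile depends on the length of the list, and the BRG1 lists hold more peaks, so the 20000 strongest peaks of each list were also ranked among themselves. In the whole lists, every BRG1 percentile exceeded every PBRM1 percentile at *Klf2* (mean difference 7.63 points), *Klf6* (15.2 points), and *Klf7* (3.81 points), each with p = 0.1 in a two-sided exact permutation test, the smallest p that 3 against 3 replicates allow. Those 3 of 10 genes compare with 40.0% of the 11388 genes tested, so that the share was near the background. The ranks overlapped at the other 7 genes, where the differences ranged from -2.40 points at *Klf5* to 21.4 points at *Klf4* and the exact permutation p from 0.2 to 1. In the whole lists, every PBRM1 percentile was above every BRG1 percentile at 0 of the 10 genes, compared with 2.76% of genes. In the lists of equal length, the BRG1 ranks were still all above the PBRM1 ranks at *Klf2*, *Klf6*, and *Klf7*, by 7.50, 17.7, and 4.16 points, compared with 13.2% of the 10662 genes with a promoter peak in all 6 of these lists. The PBRM1 ranks were all above the BRG1 ranks at *Klf5* and *Klf9*, by differences of -10.1 and -1.34 points (BRG1 minus PBRM1), compared with 13.0% of genes. Each of these 5 genes had p = 0.1 in the exact permutation test. The differences at *Klf3*, *Klf4*, *Klf13*, and *Klf15* changed sign, to -7.35, -1.46, -3.61, and -3.87 points, so that no direction can be given for them. In the pooled BRG1 list, the strongest promoter peaks of *Klf2*, *Klf6*, *Klf7*, and *Klf9* were in the top 1%. This was so for 4.13% of all genes, a share that counts genes without a promoter peak. The share among genes with a CpG-rich start was not computed.

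**Figure D3:**
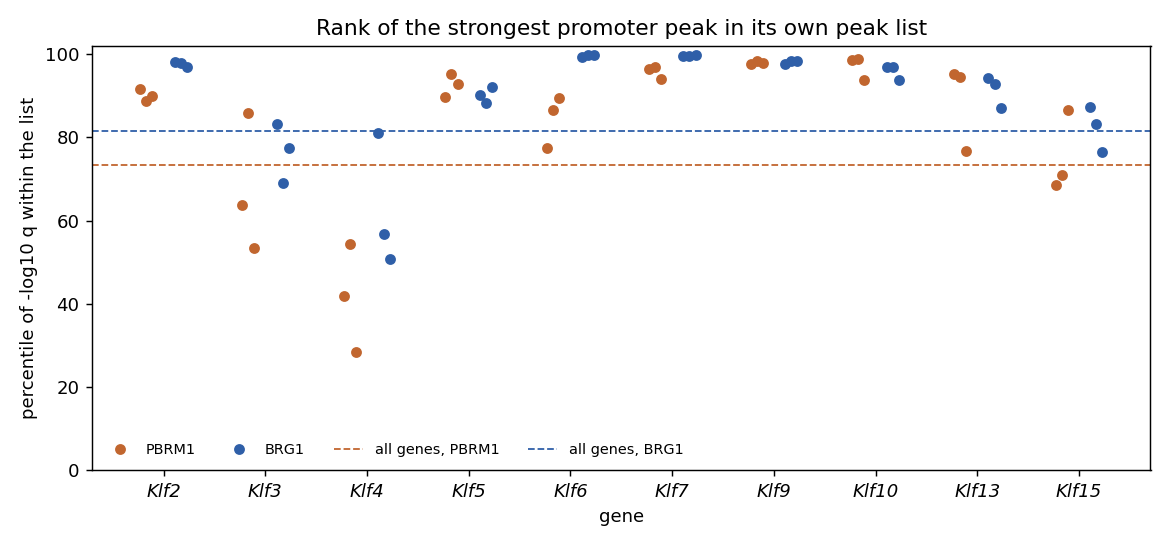
Percentile of the strongest promoter peak within its own list (y axis, by −log10 q, 100 is the strongest) for each gene (x axis) and replicate; dashed lines are the mean over replicates of the median of all genes with a promoter peak. The BRG1 points of *Klf6* and *Klf7* lie between 99.3 and 99.9, and *Klf4* has the lowest mean of the 10 genes with both antibodies. The BRG1 lists are longer, which raises their percentiles.

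Distal peaks were distributed unevenly over the 10 genes. The pooled lists held 44 distal PBRM1 peaks and 84 distal BRG1 peaks in all, of which 10 and 19 were present in all 3 replicates of their antibody. The median was 1 PBRM1 and 2 BRG1 distal peaks of 3 replicates per gene, the same as the medians over all protein-coding genes. None of the 10 genes had 5 or more such BRG1 peaks, compared with 15.5% of all genes, and *Klf5* and *Klf10* had none, compared with 31.2%. Of the 44 PBRM1 peaks, 40 overlapped a pooled BRG1 peak, and 38 of the 84 BRG1 peaks overlapped a pooled PBRM1 peak. The shares over all distal peaks of the lists were not computed.

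**Figure D4:**
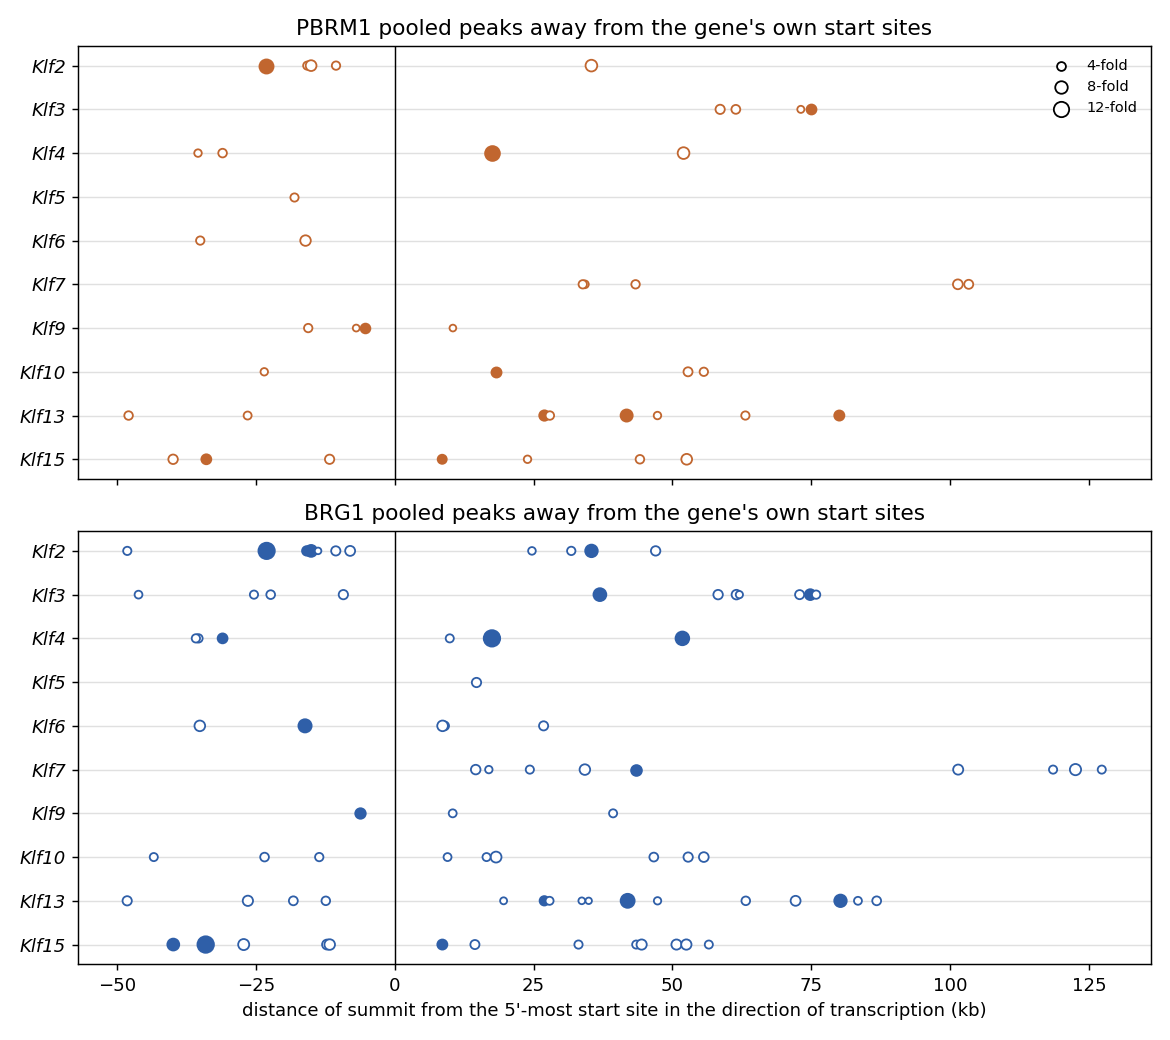
Pooled distal peaks of PBRM1 (upper) and BRG1 (lower) by distance of the summit from the 5′-most start site in the direction of transcription (x axis, kb), 1 row per gene. Circle area grows with fold enrichment, and filled circles were present in all 3 replicates of the antibody (10 for PBRM1 and 19 for BRG1). *Klf5* has no filled circle, and the largest circles are at *Klf2*, *Klf4*, and *Klf15*.

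The strongest reproducible distal peak of *Klf4* far exceeded its promoter. It lay 17513 bp downstream of the 5′-most start, beyond the 3′ end of the gene (chr4:55514768-55515285), and no annotated start site was within 2000 bp. The fold enrichments there were 10.3, 10.5, and 6.30 for PBRM1 and 12.0, 10.6, and 9.71 for BRG1. In each of the 6 replicates this was higher than the highest *Klf4* promoter peak of the same list. Of the 10 genes, 3 (*Klf2*, *Klf4*, and *Klf13*) had their strongest peak away from every start site present in all 6 replicates. It was above the promoter in all of them at *Klf4* alone, which is 1 of 3, compared with 16.2% of the 2001 genes with such a peak and a promoter peak in all 6 replicates. The peak was chosen as the strongest one in the pooled BRG1 list, which draws on the same fragments, so no test of the difference was made. Its central window had 67.7% G and C and a CpG ratio of 0.835, above the medians of 52.7% and 0.282 for pooled BRG1 peaks away from every start, and no base of the peak was repeat-masked. A further *Klf4* peak 51807 bp downstream was 9.57-fold in the pooled BRG1 list and was present in all 3 BRG1 replicates and 1 PBRM1 replicate.

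*Klf2* had the next such site, 23067 bp upstream of its start (chr8:72295360-72296468). The fold enrichments were 8.53, 9.26, and 7.76 for PBRM1 and 11.0, 13.8, and 10.5 for BRG1. They were higher than at the *Klf2* promoter in 5 of the 6 replicates, with PBRM1 replicate 1 as the exception. Like the *Klf4* peak, the *Klf2* peak was chosen as the strongest one in the pooled BRG1 list, so the difference was not tested. This peak was 1109 bp long, and its sequence was poor in CpG, at a ratio of 0.235. *Klf2* had 3 further BRG1 peaks of 3 replicates, with summits 15831 and 15051 bp upstream, both near the start of *Gm10282*, and 35437 bp downstream, away from any start.

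**Figure D5:**
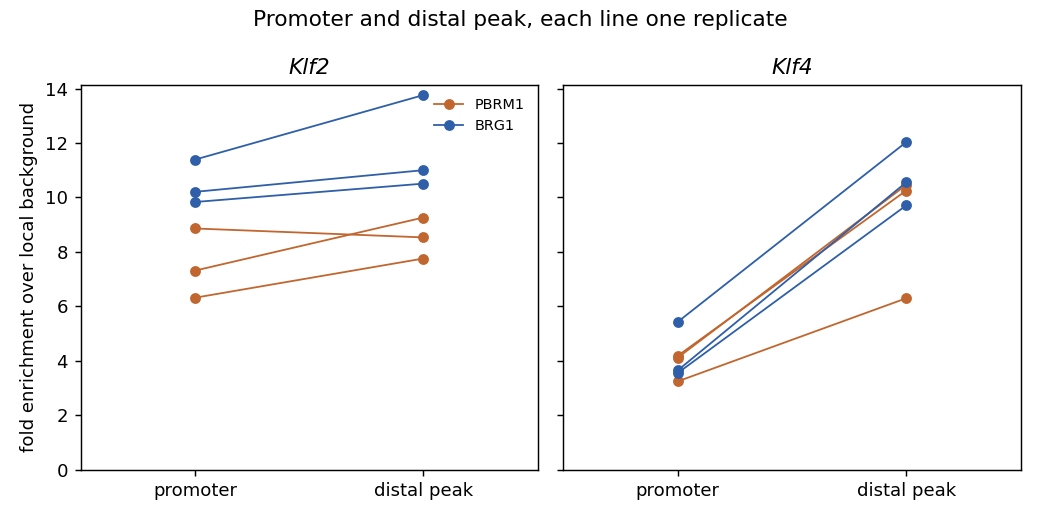
Fold enrichment over the local background (y axis, linear) at the strongest promoter peak and at the strongest reproducible distal peak of *Klf2* and *Klf4*, with 1 line per PBRM1 (orange) or BRG1 (blue) replicate. All 6 lines rise at *Klf4*, and 5 of 6 rise at *Klf2*.

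Some distal sites were called with the BRG1 antibody alone. Of the 19 distal BRG1 peaks of 3 replicates, 9 were also present in all 3 PBRM1 replicates, 6 in 1 or 2, and 4 in none. The same split over the distal BRG1 peaks of all genes was not computed, so it is not shown to be particular to these genes. These 4 lay at *Klf3*, *Klf4*, *Klf6*, and *Klf7*, of which the *Klf4* peak was near the start of *Gm12511* and the *Klf7* peak near that of *Gm13748*, and those of *Klf3* and *Klf6* were also without a pooled PBRM1 peak. The *Klf3* peak (chr5:64840169-64840493), 36952 bp downstream of the 5′-most start, had BRG1 fold enrichments of 7.12, 6.24, and 4.27. These were above the *Klf3* promoter in BRG1 replicates 1 and 2 and below it in replicate 3. The PBRM1 lists were shorter, and a site under their threshold is not shown to be free of PBRM1.

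*Klf6* had an upstream site 16151 bp before its 5′-most start (chr13:5845090-5845842), at 8.38, 6.13, and 8.85 for BRG1. PBRM1 was called there in replicates 1 and 3, at 4.56 and 5.64, and not in replicate 2. All BRG1 values were therefore above the PBRM1 values that were called, as at the *Klf6* promoter. The site was chosen by its pooled BRG1 fold enrichment, which favors BRG1 in this comparison. The window around its summit held a pair of AP-1 strings, which 10.3% of pooled BRG1 peaks away from start sites hold at least once. No other of the 6 named windows away from start sites held an AP-1 string.

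At several genes the strongest reproducible distal peak lay within 2000 bp of the start of another gene's transcript. The *Klf15* peak 34040 bp upstream (chr6:90428304-90429032) lay near the start of *Cfap100*. Its fold enrichments were 4.08, 5.35, and 4.46 for PBRM1 and 13.2, 7.15, and 12.1 for BRG1. The named distal peaks were chosen by their pooled BRG1 fold enrichment, which favors BRG1 in this comparison. No share over all distal peaks was computed for it. A second *Klf15* peak 39875 bp upstream, away from any start, had 5.90, 5.81, and 4.95 for BRG1 and was called in PBRM1 replicates 2 and 3, at 4.38 and 4.77. For *Klf9*, a 2212 bp wide peak 6234 bp upstream (chr19:23134135-23136346) lay near the start of *2410080I02Rik*. It had 5.48, 4.86, and 3.56 for PBRM1 and 5.84, 4.96, and 5.18 for BRG1. This was the only reproducible distal peak of *Klf9* with either antibody, at values below those of the *Klf9* promoter in every replicate.

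*Klf13* had its strongest distal peak inside the gene, in an intron and near the start of *Gm27252* (chr7:63896789-63897438). The fold enrichments were 8.25, 6.99, and 4.59 for PBRM1 and 8.33, 9.35, and 9.35 for BRG1, higher than at the *Klf13* promoter in all 6 replicates. This peak too was chosen as the strongest reproducible one in the pooled BRG1 list. No share of genes was computed for peaks near another start, and the difference was not tested. Another *Klf13* site, 80282 bp downstream of the 5′-most start and beyond the 3′ end (chr7:63858571-63859107), was away from any start. It had 4.85, 4.41, and 5.10 for PBRM1 and 7.22, 6.88, and 6.29 for BRG1. These did not overlap, but the site was chosen by its pooled BRG1 fold enrichment, which favors BRG1. Its window held a CRE (TGACGTCA), a string found in 0.424% of pooled BRG1 peaks away from start sites. The *Klf7* peak 43388 bp downstream of the 5′-most start (chr1:64078425-64079270) lay in coding sequence of *Klf7* near the start of *Gm13748*. It was weak, at 5.31, 4.94, and 4.08 for BRG1, and was called in no PBRM1 replicate.

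*Klf5* and *Klf10* were the genes with no distal BRG1 peak of 3 replicates. *Klf5* had no distal peak in any of the 6 replicate lists, although its promoter was among the strongest of the 10 for PBRM1. The pooled lists gave it 1 weak peak each, at 3.48-fold 18145 bp upstream for PBRM1 and at 4.45-fold 14625 bp downstream for BRG1. *Klf10* had a peak 18232 bp downstream (chr15:38282246-38282937) in all 3 PBRM1 replicates, with a mean of 4.25 ± 0.783 (SD, n = 3), and in 2 of the 3 BRG1 replicates.

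The number of distal peaks per replicate was then compared between the antibodies. *Klf2* had 3, 2, and 3 for PBRM1 and 7, 5, and 5 for BRG1, *Klf4* had 2, 1, and 1 and 3, 4, and 3, *Klf6* had 1, 0, and 1 and 2, 3, and 4, and *Klf7* had 1, 1, and 0 and 3, 4, and 2. At these 4 genes every BRG1 count was above every PBRM1 count, with p = 0.1 in the two-sided exact permutation test. The same was so for 19.2% of all genes. With the 20000 strongest peaks of each list, it held for 0 of the 10 genes and for 1.80% of all genes, where the lists have equal length and the weakest peaks of both antibodies are gone. The counts overlapped at the other 6 genes, with exact permutation p from 0.2 to 1.

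Of the 7 other *Klf* genes, *Klf1*, *Klf8*, *Klf11*, *Klf12*, and *Klf16* had a promoter peak in all 6 replicates, which is 5 of 7, compared with 51.9% of all genes. Among these, *Klf11*, a Sin3-binding relative of *Klf10*, had pooled fold enrichments of 8.46 for PBRM1 and 8.50 for BRG1. *Klf14* had one in the 3 BRG1 replicates and in no PBRM1 replicate, and *Klf17* had no promoter peak in any of the 8 lists. Of the 9 *Sp* genes, *Sp1*, *Sp2*, *Sp3*, *Sp4*, and *Sp5* had one in all 6 replicates, 5 of 9, with pooled BRG1 fold enrichments of 5.58 to 8.47. The other 4 *Sp* genes did not, and *Sp6* and *Sp7* had none in any replicate.

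The strings that the family itself binds were counted at the promoter summits. In the 100 bases on either side of the strongest pooled BRG1 promoter summit, G and C made up 60.7% to 76.6%, and the CpG ratio was 0.582 to 1.04, compared with medians of 61.7% and 0.639 over 29481 pooled BRG1 peaks near a start. A GC box was found on either strand in 8 of the 10 windows and in 39.6% of all such peaks, and *Klf2* and *Klf5* were the genes without it. A CACCC box was found in 4 of 10 (*Klf2*, *Klf5*, *Klf13*, and *Klf15*), compared with 53.3%. An E-box, visible in the *Klf9* line above, was found in 3 of 10, compared with 6.35%. No promoter window held AP-1, CRE, or CArG box strings, which 5.06%, 1.35%, and 0.753% of such peaks held. The study's motif TCCCAG was found in 1 of 10, compared with 25.5%. The steroid receptor half-site TGTTCT was found in 1 of 10, compared with 8.82%. None of 10 held the study's motif GACCACT, present in 1.70% of such peaks. None held TCGGTG, present in 6.74%, and none held the longest motif, CCAGGGCCT, present in 0.889%. A GC box is more likely in a window rich in G and C, and the part of base composition was not tested. The 10 windows are each the strongest promoter peak of a gene. The peaks compared with them include weaker ones and those near the start of any annotated transcript. The part of this difference in the comparisons was not tested.

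Of the 6 distal windows away from any start, the *Klf4* and *Klf13* windows held a GC box, compared with 10.1% of 53125 such pooled BRG1 peaks, and the *Klf2*, *Klf4*, and *Klf13* windows held a CACCC box, compared with 48.0%. In the *Klf4* line above, a GC box and a pair of CACCC boxes are spread over the window. The *Klf3* line holds none of the marked strings. The 6 windows were chosen from strong, reproducible peaks, whereas the peaks compared with them were of any strength.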

How the data were processed

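ChIC-Seq peak lists were used for PBRM1 and BRG1, 3 replicates each, in WT stromal cells of the D4 mouse uterus. According to the study's methods, the authors aligned read pairs to mm10 and removed duplicates. Each replicate, and the 3 replicates of an antibody merged, went through MACS 2.2.7.1 at a q-value cutoff of 0.05, with a local background of 10000 bp and no control file, per the file headers. The 8 deposited lists give for each peak a pileup signal, a fold enrichment over the local background, and a −log10 q-value, which the authors' MACS run computed. Because no control was used, the part of open chromatin or of sequence that collects fragments with any antibody was not tested, and values of different libraries do not share a scale. The 2 IgG libraries were not analyzed here. Replicate depth was 8868777 to 16505239 fragments, and a missing call means only that a site was below the threshold at that depth.

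Samples were grouped by the antibody in their labels. The study's figure legend calls the replicates biological. If they shared a pool of animals, the spread between them is technical. The 10 genes, the family and marker lists, and the rules were chosen with earlier results of these data known. All 10 genes are described, with other *Klf* and *Sp* genes by counts and by name where they had a promoter peak in no list or in all 6 replicates, *Klf14*, *Sp6*, and *Sp7* being named after their values were seen. The named distal peak of a gene is the pooled BRG1 peak of highest fold enrichment among those overlapped by a peak in each of the 3 BRG1 replicates. Further distal peaks were named after their values were seen. Peaks were matched to GENCODE M21 starts within 2000 bp, any overlap counting as shared, and the strongest promoter peak was that of highest −log10 q. Replicates were compared by two-sided exact permutation tests of 3 against 3 in SciPy 1.17.1, without adjustment over genes, since none can go below 0.1. Window sequences were read from the GRCm38 reference, whose chromosomes contain all peaks. The matching and ranking code was tested on simulated lists. Alternatives changed the promoter distance, flanks, start sites, q threshold, list length, rank measure, overlap, and replicates.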

Additional observations from a re-analysis of the deposited data

How the results depend on the processing

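Of 66 recomputed counts over the 10 genes, 58 stayed within 1.5 times the reported value. The promoter counts stayed at 10 of 10 under each alternative except a −log10 q of at least 5, where 9 genes kept a PBRM1 promoter peak in 3 replicates and 9 kept one in all 6, *Klf4* being lost through PBRM1 replicate 3 (−log10 q of 3.79). The 10 reproducible distal PBRM1 peaks became 19 with 100 kb flanks and 4 at a −log10 q of at least 5. The 19 reproducible distal BRG1 peaks became 12 with 25 kb flanks, 29 with 100 kb flanks, 12 at a −log10 q of at least 5, and 12 without peaks near any gene's start. Leaving out 1 replicate gave 12 to 13 PBRM1 peaks and 19 to 24 BRG1 peaks. The number of genes with every BRG1 rank above every PBRM1 rank was 3 to 5 with 1 replicate left out, the 5 arising without PBRM1 replicate 2, and the number for distal counts was 4 to 6. With the 20000 strongest peaks of each list, the number for distal counts was 0 genes instead of 4. This alternative equalizes the length of the lists and also removes weak peaks, and the part of each was not tested.

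Rank differences turned negative at several genes whose ranks overlapped. With 20000 peaks per list, where every PBRM1 rank was above every BRG1 rank at *Klf5* (-10.1 points) and *Klf9*, the differences of BRG1 minus PBRM1 that reversed were -7.35 points at *Klf3*, -1.46 at *Klf4*, -1.34 at *Klf9*, -3.61 at *Klf13*, and -3.87 at *Klf15*. Ranking by fold enrichment gave -2.45 points at *Klf9*. Leaving out 1 replicate gave -0.0950 to 0.313 points at *Klf9* and -3.50 to 5.83 points at *Klf13*, with the negative value at *Klf13* arising without PBRM1 replicate 3. The *Klf13* distal count also reversed with 20000 peaks, to a difference of -0.667 peaks. The cause of these reversals was not tested. The rank differences of *Klf2*, *Klf6*, and *Klf7* stayed positive under every alternative tried.

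Same-numbered replicates did not deviate together (r = -0.0113, -0.00744, and 0.0124 over 11388 genes). Differently numbered ones gave r of -0.0153 to 0.0238. These values cannot decide whether same-numbered samples shared a pool of cells, since independent noise between libraries could hide it. As a replicate block, the BRG1 rank was higher in all 3 numbered pairs at 4 genes and the BRG1 distal count at 6, where the exact sign-flip test of 3 pairs cannot go below p = 0.25. Depth limits the absence of calls, above all in the shorter PBRM1 lists.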
